A study of Mus musculus with 5 samples.

Results

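The endogenous Myc locus was examined in 4 lists of ChIP-seq peaks (chromatin immunoprecipitation followed by sequencing) for RNA polymerase II (RNAPol2), TEAD, YAP and Myc. Members were the peaks whose summit, the position of highest coverage, lay at chr15:60800000-63500000 of the mouse genome build mm9. This 2.7 Mb window held 373 of the 122868 peaks in the 4 lists, of which 153 were RNAPol2 peaks, 150 were TEAD peaks, 53 were YAP peaks and 17 were Myc peaks. The Myc gene was taken at about chr15:61816900-61821900, on the plus strand, so that downstream positions have higher coordinates. Positions are given below relative to this start, with negative values upstream.

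The chromatin came from 3T9MycER cells, immortalized mouse embryonic fibroblasts of the 3T9 line that carry MycER, a Myc protein fused to the hormone-binding part of the oestrogen receptor. All 4 ChIP samples had received 400 nM 4-hydroxytamoxifen (OHT), which activates MycER, and 2 µg/ml doxycycline, which induces the YAP mutant S127A. There was 1 sample per antibody and no untreated ChIP sample, so no test between conditions was possible and differences are described without p-values. Another sample, named input in its title and listed with an IgG, was not used here. The antibodies were MycN262 for Myc, N20-X for RNAPol2, ARP38276_P050 for TEAD and sc101199 for YAP. Chromatin was fixed with 1% formaldehyde, and for YAP with the additional protein crosslinker DSG. Both MycER and doxycycline-induced YAP are exogenous proteins, and endogenous Myc and MycER, or endogenous YAP and induced YAP, cannot be told apart in these peaks. The sample labels give growth in 10% tetracycline-free serum. The paper's legend for its fibroblast ChIP-seq panels describes serum-starved, highly confluent cells. Which of these held at fixation is not settled here. The genotype label names the MycER cells only, and gives no promoter for either construct.

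Myc encodes a transcription factor that binds E-box sequences as a dimer with Max and acts on genes for growth, metabolism and cell division. YAP is a transcriptional co-activator held back by the Hippo pathway. It does not bind DNA itself and is brought to chromatin mainly by TEAD factors, often at enhancers far from promoters. The Myc gene lies in a wide stretch with few protein-coding genes, where distant enhancers are known to act on it, and RNA polymerase II is found at the promoters and along the bodies of transcribed genes.

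Depth ranged from 20441605 tags for Myc to 38345189 for RNAPol2, against 60189064 tags of a control library named in the file headers. Peak height is given as pileup, the number of extended tags over the summit, and as fold enrichment, the pileup over the local control level used by the peak caller. Pileup was compared only within a list, since lists differ in depth, fixation and antibody. Dividing pileup by fold enrichment gives the control level of each peak, whose lowest value in a list (the floor) is the average expected over the genome. The median control level was 1.83 times the floor at the 373 peaks of the window, 1.52 times on the rest of chromosome 15 and 1.07 times on the other chromosomes. Within the window it was 1.68 times the floor in the upstream flank, 1.56 times at the promoter, 1.87 times in the gene body and 1.85 times in the downstream flank. No peak of the window lay within 5% of the floor, against 47.7% of the whole Myc list and 42.8% of the whole RNAPol2 list. The position of a peak in its list is therefore given both by pileup and by fold enrichment. Pileup is not divided by the control, so a raised local level is not removed from it. Fold enrichment is divided by that level. The part of the control level in the values below was not tested.

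**Figure D1:**
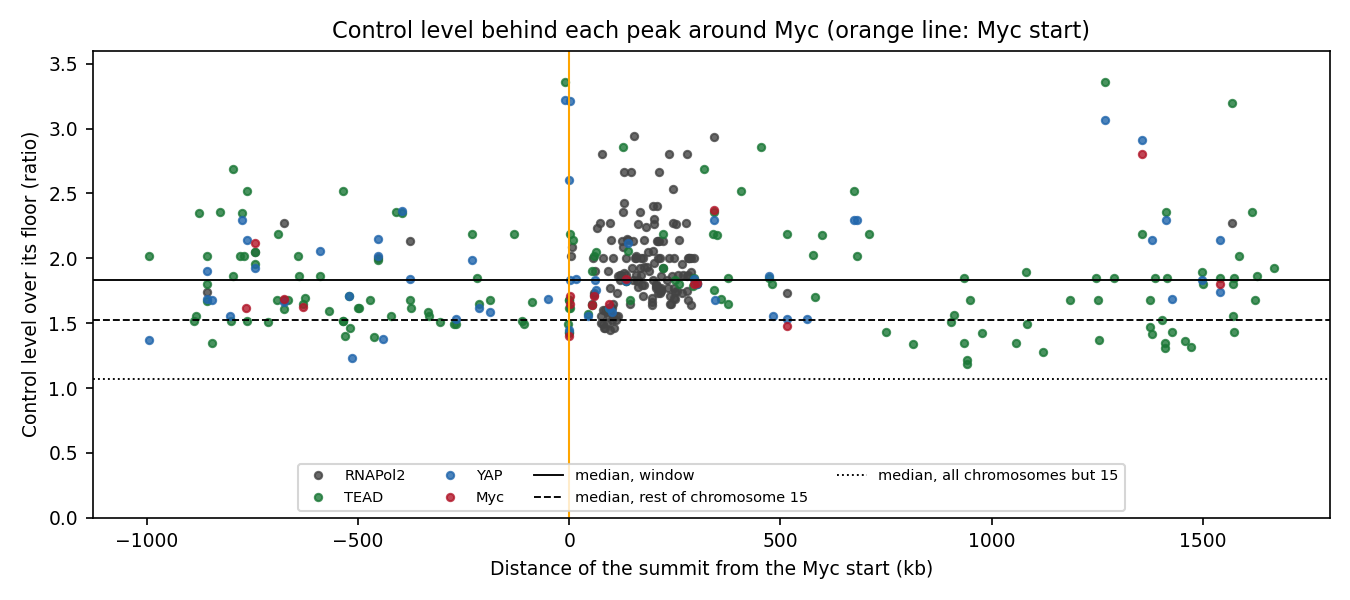
Control level of each of the 373 peaks as a multiple of the floor of its list (vertical axis, ratio) against the distance of its summit from the Myc start (horizontal axis, kb), coloured by antibody. The horizontal lines mark the medians of 1.83 in the window, 1.52 on the rest of chromosome 15 and 1.07 on the other chromosomes. All points lie above the lowest line, in both flanks.

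At the Myc promoter, defined as 1000 bp on either side of the start, RNAPol2 had 1 summit, TEAD 2, YAP 3 and Myc none. RNAPol2 occupancy was among the highest of its list. TEAD occupancy was in the upper part of its list, whereas the YAP and Myc peaks at the gene were low in pileup, in fold enrichment or in both.

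The RNAPol2 peak of the promoter lay at chr15:61815704-61819865 and was 4162 bp wide, from upstream of the start into the gene body. Its summit, 243 bp past the start, reached a pileup of 239 and a fold enrichment of 35.08. It ranked 574 of 49650 by pileup, at percentile 98.8 of the list, and 81 among the 3805 RNAPol2 peaks of chromosome 15. The percentile is the share of peaks with a lower value, with ties counted at their mean rank. By fold enrichment the same peak stood at percentile 97.2, so it was near the top on both scales. A weaker RNAPol2 peak lay in the gene body at chr15:61820885-61821492, with a pileup of 43 and a fold enrichment of 4.46, and overlapped no other list. Just past the gene end another at chr15:61822389-61824108 had a pileup of 58.

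TEAD, the DNA-binding partner of YAP, had its 2 promoter peaks on either side of the start. The first, at chr15:61816227-61816783 with its summit at -510 bp, had a pileup of 58 and a fold enrichment of 10.99. The second, at chr15:61816962-61818455 with its summit at 211 bp, had a pileup of 57 and a fold enrichment of 12.66. They stood at percentiles 85.1 and 84.7 of the TEAD list and at 80.4 and 79.7 among TEAD peaks of chromosome 15. Around them lay smaller TEAD peaks, upstream at -2783 bp with a pileup of 22, at -1787 bp (chr15:61814778-61815292) with 41 and at -1003 bp (chr15:61815670-61815968) with 25. Others lay in the gene body at 1929 bp (chr15:61818676-61819234) with a pileup of 44 and at 2474 bp (chr15:61819299-61819587) with 25. The pair nearest to the start was therefore the highest of this group.

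YAP, the co-activator, had 3 promoter peaks, all narrower than 500 bp. The highest, at chr15:61816256-61816710 with its summit at -361 bp, overlapped the first TEAD peak. Its pileup of 35 placed it at rank 2110 of 10293, percentile 78.7, but its fold enrichment of 4.20 placed it at percentile 4.69. The control level was 2.60 times the floor there. The other YAP peaks, at chr15:61817201-61817419 (437 bp) and chr15:61817487-61817856 (744 bp), overlapped the second TEAD peak and had pileups of 24 and 22, at percentiles 43.6 and 31.8. In the gene body, the remaining YAP peak at chr15:61818811-61819374 had a pileup of 32, at percentile 72.7, and a fold enrichment of 3.11, at percentile 0.491 of the list. With a control level of 3.21 times the floor, it was the promoter or gene body peak with the highest control. None of the 3 promoter peaks of YAP reached a −log10 q of 10, the highest value being 8.54. The median of the whole YAP list, 9.37, was also below 10. The RNAPol2 and TEAD promoter peaks all reached 10, in lists with medians of 11.22 and 13.38.

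Myc peaks flanked the promoter zone. One at chr15:61815667-61816057 had its summit at -1122 bp, a pileup of 23 and a fold enrichment of 5.23. Another at chr15:61817708-61818087 had its summit at 1090 bp, a pileup of 20 and a fold enrichment of 3.86. The highest Myc peak of the gene, at chr15:61819116-61819500 with its summit at 2436 bp, had a pileup of 28 and a fold enrichment of 5.20. Their pileups stood at percentiles 19.7, 8.61 and 36.3 of the Myc list, and their fold enrichments at 7.23, 0.822 and 6.96. The first and second of these peaks reached into the zone without having their summits in it, so the number of lists with a promoter peak was 3 by summit and 4 by overlap. All 3 Myc peaks overlapped the wide RNAPol2 peak and a TEAD peak.

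**Figure D2:**
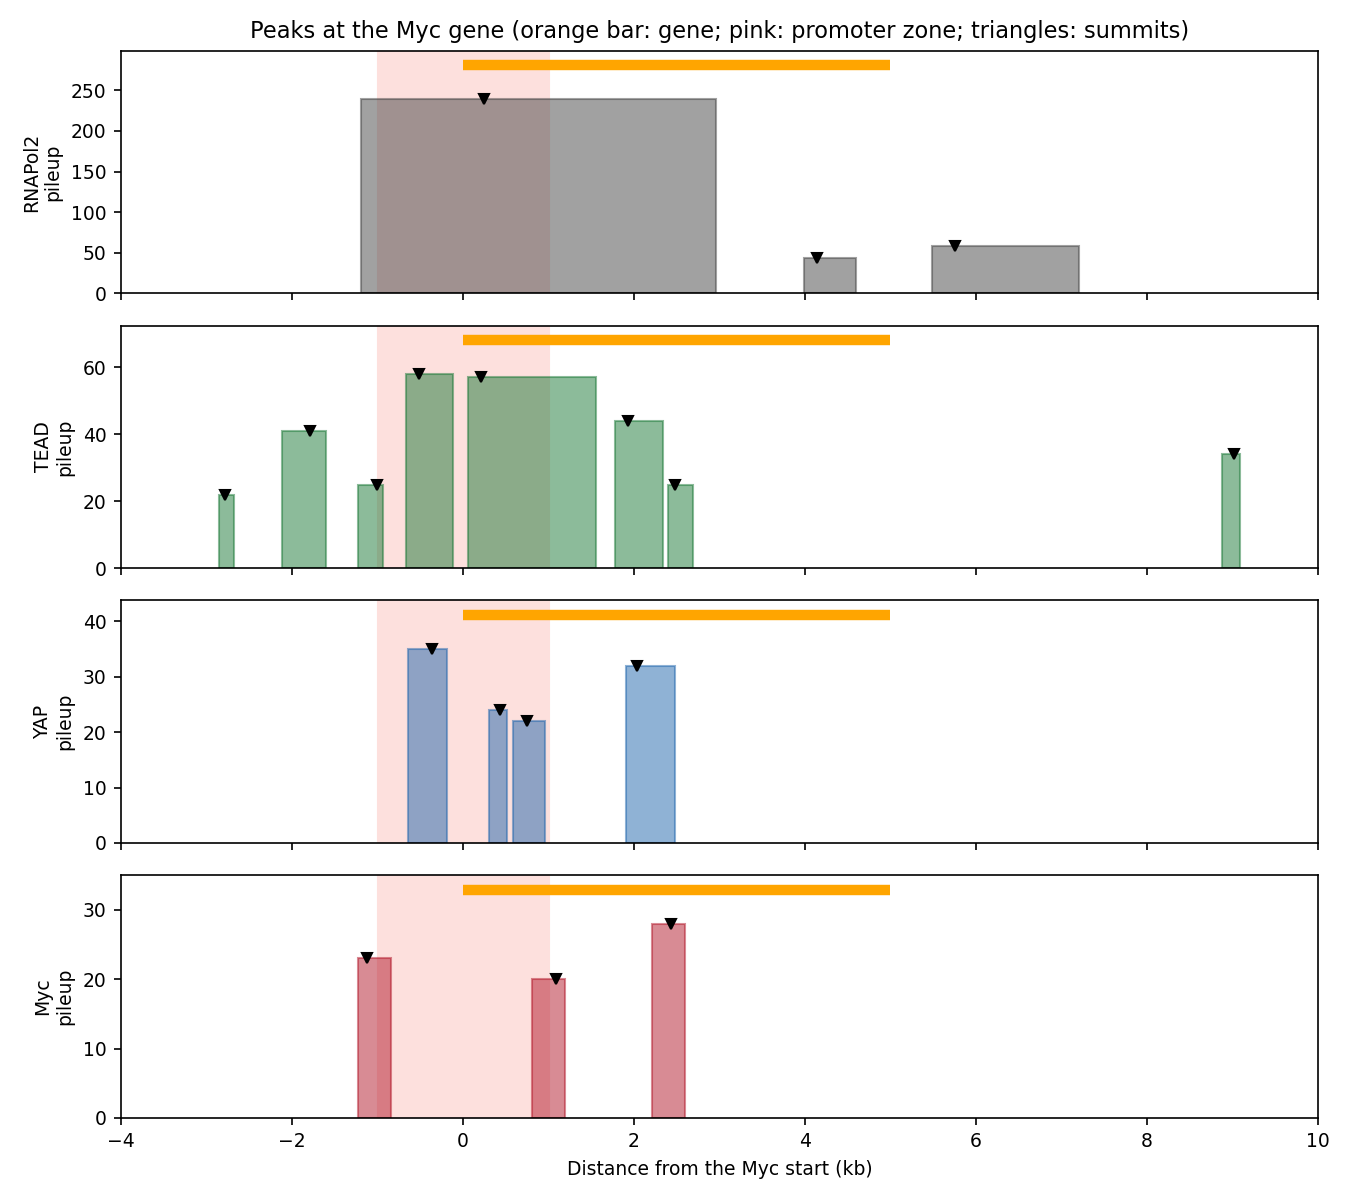
Peaks at the Myc gene in the 4 lists, each drawn as a block from its start to its end (horizontal axis, kb from the Myc start) with the height of its pileup (vertical axis, with a scale of its own in each panel); triangles mark summits. RNAPol2 formed 1 broad block of pileup 239 over the start, with TEAD blocks of 58 and 57 under it, YAP blocks of at most 35 and Myc blocks of at most 28.

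The Myc level under the wide RNAPol2 peak of the promoter, which reaches into the gene body and the upstream flank, was then set beside that at other sites with as much RNAPol2. In the whole list, 586 RNAPol2 peaks, this one included, had a pileup of at least 239, and 554 of them (94.5%) overlapped a Myc peak, against 23.6% of all RNAPol2 peaks. The highest Myc pileup under these peaks had a median of 81, whereas the highest under this wide peak was 28, with its summit in the gene body at 2436 bp. Of the 554 peaks, 44 (7.94%) had a highest Myc pileup of 28 or less. On chromosome 15 alone, 81 of 82 such RNAPol2 peaks overlapped Myc, with a median of 111, and 3 were at 28 or below. By fold enrichment, 1346 of the 1403 RNAPol2 peaks at or above 35.08 overlapped Myc, with a median Myc fold of 20.1, and 7 of them (0.520%) were at or below 5.23, the highest fold under the wide peak, whose summit was at -1122 bp. On chromosome 15 these were 2 of 85. The wide RNAPol2 peak, counted in each of these numbers, thus stood at the low end of Myc occupancy among RNAPol2 peaks at least as high; the comparisons were chosen after seeing the data and carry no test.

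The strongest Myc peak of the window lay outside the gene, 52.7 kb downstream at chr15:61869126-61871254. Its pileup of 256 and fold enrichment of 49.57 placed it at rank 51 of 14354 in the Myc list and at rank 9 of 920 on chromosome 15. An RNAPol2 peak of nearly the same extent, chr15:61869077-61871204, had a pileup of 223 and a fold enrichment of 28.40, at rank 762 of its list. The 2 TEAD peaks under it were of middle height, with pileups of 30 (chr15:61869582-61870265) and 26 (chr15:61870359-61870806) at percentiles 53.3 and 40.7, and no YAP peak overlapped it. The gene that follows Myc on the same chromosome is Pvt1, a long non-coding RNA, and the next is Macroh2a3, a transcribed pseudogene. Their order was read from an annotation of another genome build, so no peak was assigned to them by position. The second Myc peak of this stretch, at chr15:61875333-61875876 (58.7 kb), had a pileup of 54 and a fold enrichment of 10.04, and also overlapped RNAPol2 and TEAD but not YAP. The RNAPol2 pileups at 52.7 kb and at the Myc promoter were 223 and 239, while the highest Myc pileups under these 2 RNAPol2 peaks were 256 and 28, the latter in the gene body.

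From this site on, RNAPol2 peaks followed one another closely. Joining peaks separated by at most 10 kb gave a run of 141 RNAPol2 peaks at chr15:61869077-62119446, between 52.2 and 303 kb past the Myc start. It spanned 250 kb, of which the peaks covered 84.4 kb (33.7%). Among the 14996 runs made in the same way over the whole list it came after 2 others in its number of peaks, runs of 168 peaks on chromosome 10 and of 167 on chromosome 11. Joining over at most 5 kb gave a longest run of 71 peaks, and over at most 20 kb again 141.

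Peaks of the run were of middle height but low fold enrichment. Their median pileup was 34, with a range of 26 to 223, at percentile 57.4 of the list, while their median fold of 3.75 was at percentile 7.46, with a median control level of 1.87 times the floor. Of these peaks, 2 had a pileup over 80, and these were the first and the last of the run, the latter at chr15:62118132-62119446 with a pileup of 85. No Myc, TEAD or YAP peak overlapped 128 of the 141 (90.8%), against 65.8% of all RNAPol2 peaks. The same stretch held the summits of 16 TEAD, 8 YAP and 6 Myc peaks. Of the other 12 RNAPol2 peaks of the window, 6 lay in the upstream flank.

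Upstream of the gene, the nearest RNAPol2 peak was at chr15:61439998-61440438, -377 kb from the start, with a pileup of 39. The highest of the 6 upstream RNAPol2 peaks, at chr15:61363645-61365034 (-452 kb), had a pileup of 71 and a fold enrichment of 7.43. Next came peaks at chr15:61140360-61140829 (-676 kb) with a pileup of 53 and at chr15:60958657-60958978 (-858 kb) with 40. Each of these overlapped both TEAD and YAP. The upstream flank had 5.91 RNAPol2 peaks per Mb and the downstream flank 86.4, a ratio of 14.6 for downstream over upstream (interval 6.60 to 32.4). The run, chosen for its density, held 141 of the 145 downstream peaks, and without it the ratio was 0.404. Its interval of 0.122 to 1.33 includes equal density, so a reversed direction is not established. The run of 71 peaks joined over at most 5 kb left 74 downstream peaks outside it.

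**Figure D3:**
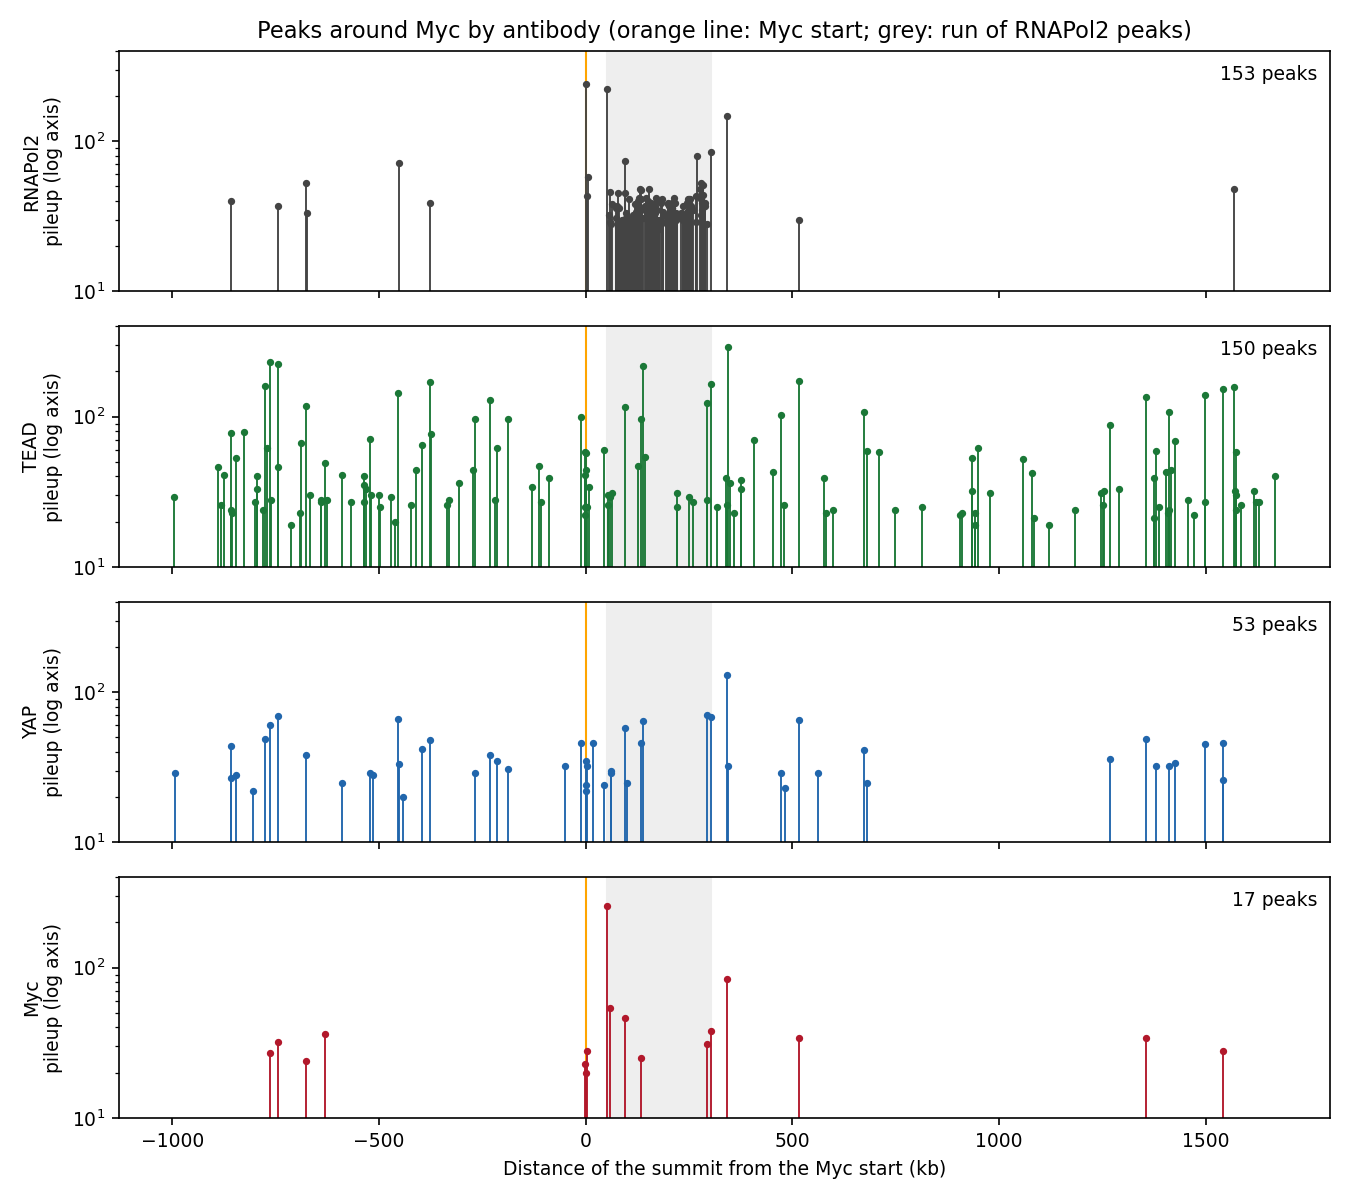
All 373 peaks of the window by antibody, each a line from the axis to its pileup (vertical axis, log scale) at the distance of its summit from the Myc start (horizontal axis, kb); the orange line marks the start and the grey band the run of RNAPol2 peaks. RNAPol2 peaks crowd into the band from 52.2 to 303 kb, TEAD peaks spread over both flanks, and the highest Myc peak (256) stands at the upstream edge of the band.

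The flanks carried TEAD and YAP peaks on both sides. TEAD had 63 peaks in the upstream flank and 83 in the downstream flank, or 62.0 and 49.5 per Mb, and YAP had 23 and 26, or 22.6 and 15.5 per Mb. The downstream over upstream ratio was 0.798 for TEAD and 0.684 for YAP. Within 500 kb of the start this ratio was 1.15 for TEAD (interval 0.685 to 1.94) and 1.27 for YAP (0.588 to 2.74). Over the whole flanks the intervals were 0.576 to 1.11 for TEAD and 0.393 to 1.19 for YAP. Each of these intervals includes equal density, so the values do not show which flank was denser. Myc had 5 peaks upstream and 10 downstream, with a ratio of 1.21 per Mb (interval 0.433 to 3.38). This ratio became 6.99 within 500 kb (1.12 to 43.5), where the only upstream Myc peak was that at -1122 bp. That peak reaches into the promoter zone. Among peaks with −log10 q of 10 or more the ratio was 4.24 (0.680 to 26.4), and the only upstream peak was chr15:61186874-61187344. Each of these higher ratios thus rests on the only upstream peak left, and a downstream bias of Myc is not established. The longest stretch without a TEAD peak was 106 kb. RNAPol2 had none for 1052 kb, between 516 and 1568 kb past the start, where 42 TEAD peaks, 11 YAP peaks and 2 Myc peaks lay. The longest stretch without a YAP peak, of 587 kb between 681 and 1267 kb, held 19 TEAD peaks.

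Compared with the rest of chromosome 15, the window had more RNAPol2 (56.7 against 37.4 per Mb), TEAD (55.6 against 39.7) and YAP peaks (19.6 against 14.4), and fewer Myc peaks (6.30 against 9.25). Of the RNAPol2 peaks of the window, 141 lay in the run and 12 outside it. With a −log10 q of at least 10 the RNAPol2 ratio was 1.01 (interval 0.765 to 1.33). Over all chromosomes the densities were 19.3, 18.9, 4.00 and 5.58 per Mb. By value, the Myc density was above that of the genome (ratio 1.13) and below that of the rest of the chromosome (ratio 0.681). The interval of the latter ratio, 0.423 to 1.09, includes equal density. With a −log10 q of at least 10 it was 0.420 (0.212 to 0.833), and with the stronger 50% of the list 0.268 (0.0910 to 0.792). Against chromosome 15 up to 76 Mb only, which had a median control level of 1.68 times the floor, the ratio for Myc was 1.04 (0.643 to 1.68). With the stronger 50% of each list by fold enrichment, the ratio for RNAPol2 was 0.263 instead of 1.51.

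By pileup, the peaks of the window were high in their lists for YAP, with a median percentile of 74.9, and above the middle for TEAD (61.4) and RNAPol2 (59.4), while Myc peaks were slightly below it (46.4). Among chromosome 15 peaks the medians were 70.8, 52.5, 56.0 and 37.3. By fold enrichment in the whole list, every median fell below the middle, at percentile 36.8 for YAP, 24.4 for TEAD, 8.39 for RNAPol2 and 7.93 for Myc. Among chromosome 15 peaks the fold medians were 57.3, 39.1, 25.0 and 18.9, so that of YAP was above the middle there. Of the TEAD peaks, 28 of 150 were in the top 10% of their list by pileup (9.92% of all TEAD peaks were, given ties), as were 12 of 53 YAP peaks (9.84%), 3 of 153 RNAPol2 peaks (10%) and 1 of 17 Myc peaks (10.1%). Among chromosome 15 peaks, 25 TEAD, 9 YAP, 3 RNAPol2 and 1 Myc peaks of the window were in the top 10% by pileup. By fold enrichment, 53 TEAD, 20 YAP, 9 RNAPol2 and 3 Myc peaks were above the middle of their list. The window thus held many TEAD and YAP peaks of high pileup, but by fold enrichment most of its peaks were in the lower 50% of their whole list. For YAP this did not hold among chromosome 15 peaks. RNAPol2 and Myc peaks in the top 10% by pileup were few. They were the promoter and the sites at 52.7 and 343 kb for RNAPol2, and the site at 52.7 kb for Myc.

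**Figure D4:**
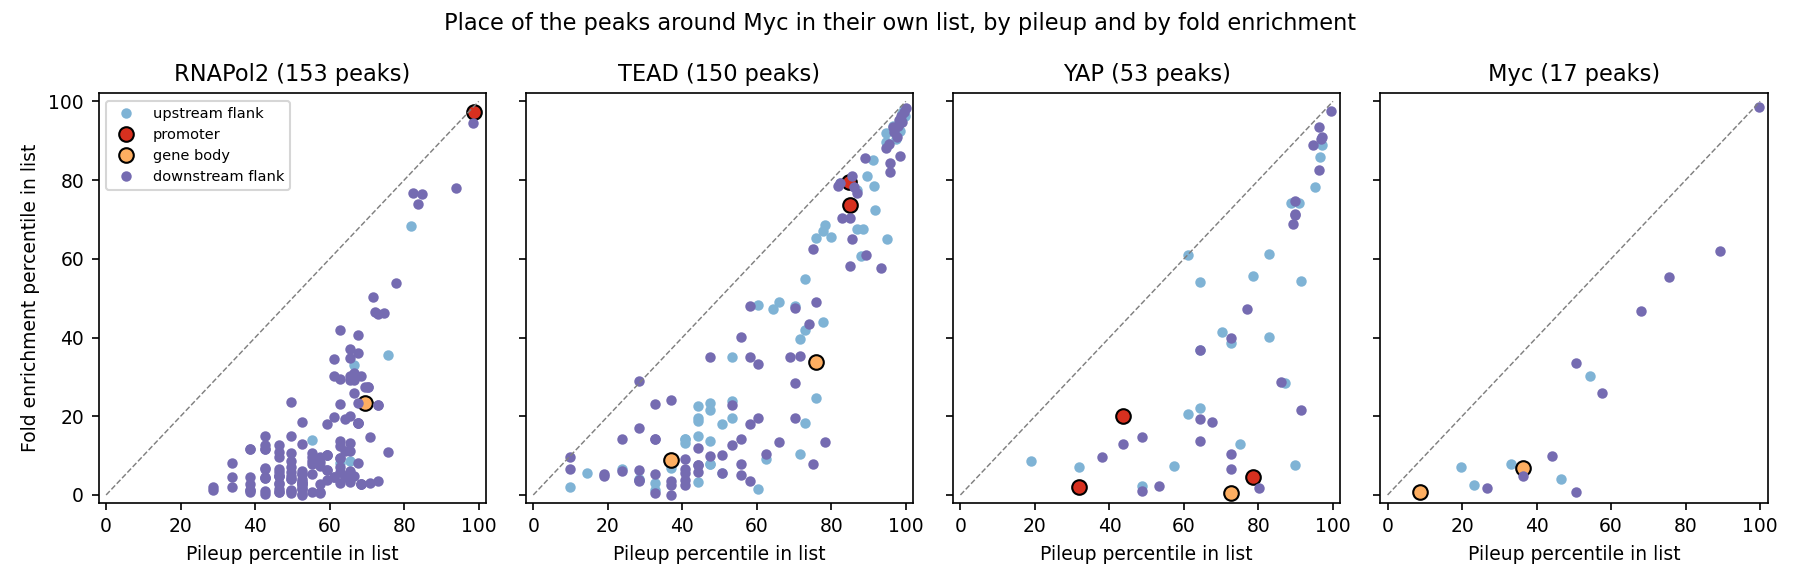
Percentile of each peak of the window in its own list by pileup (horizontal axis) and by fold enrichment (vertical axis), 1 panel per antibody, coloured by zone; the dashed line marks equal percentiles. Nearly all points fall below the line, the RNAPol2 promoter peak (98.8 and 97.2) lies near its upper end, and the highest YAP promoter peak (78.7 and 4.69) lies near the bottom.

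YAP peaks of the window mostly coincided with TEAD. Of 53 YAP peaks, 42 overlapped a TEAD peak (79.2%, 95% Wilson interval 66.5 to 88.0), against 80.6% on the rest of chromosome 15 and 91.6% of the whole list. The YAP and TEAD summits were a median of 57 bp apart, and 43 bp in the whole list. The remaining 11 YAP peaks were without TEAD (20.8%, against 273 of 1404 on the rest of chromosome 15 and 8.42% of the list). All 11 overlapped no list at all, as did 6.96% of the YAP list, and had a median pileup of 29, between 20 and 46. The highest of them was at chr15:61833397-61833659, 16.7 kb past the Myc start, with a fold enrichment of 7.81. The nearest upstream YAP peak, at chr15:61805687-61806158 (-11.0 kb), had the same pileup of 46 but a fold enrichment of 4.46, and overlapped a TEAD peak of pileup 99. Intervals count peaks as independent and cover counting error only, since tags amplified by PCR are not independent molecules.

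TEAD peaks with YAP were higher than those without. The 38 TEAD peaks that overlapped YAP (25.3%, against 27.3% on the rest of chromosome 15 and 18.7% of the list) had a median pileup of 101 and a range of 25 to 292, while the 112 others had a median of 29 and a range of 19 to 157. In the whole list the medians were 66 and 26. TEAD peaks alone, with no YAP, Myc or RNAPol2, made up 101 of the 150 (67.3%, against 55.6%). The part of TEAD peak height in the overlap with YAP was not tested.

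All 17 Myc peaks overlapped a TEAD peak (81.6 to 100% by the Wilson interval), against 81.8% on the rest of chromosome 15 and 69.4% of the list. YAP overlapped 13 of them (76.5%, 52.7 to 90.4), against 47.7% on the rest of chromosome 15 and 21% of the list, and RNAPol2 also 13 (76.5%), against 83.2% and 88.2%. With summits within 250 bp instead of overlap, the share of Myc peaks was 70.6% with TEAD, 52.9% with YAP and 41.2% with RNAPol2. This setting was applied to the window only, so no share of the chromosome or list stands beside these values. From the side of YAP, 13 of 53 peaks overlapped Myc (24.5%, 14.9 to 37.6), against 34.3% and 30.9%, and 18 overlapped RNAPol2 (34.0%), against 44.8% and 48%. TEAD peaks overlapped Myc in 19 of 150 cases (12.7%, against 21.8% on the rest of chromosome 15 and 22.5% of the list) and RNAPol2 in 26 (17.3%, against 32.5% and 33.9%). Of the 153 RNAPol2 peaks, 22 overlapped TEAD (14.4%, against 28.0% on the rest of chromosome 15 and 28.1% of the list), 15 YAP (9.80%, against 14.8% and 9.15%) and 11 Myc (7.19%, against 18.5% and 23.6%). Peaks of different lists at 1 site come from separate ChIP libraries but share the control library. No test of these differences between the window and the rest was made.

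**Figure D5:**
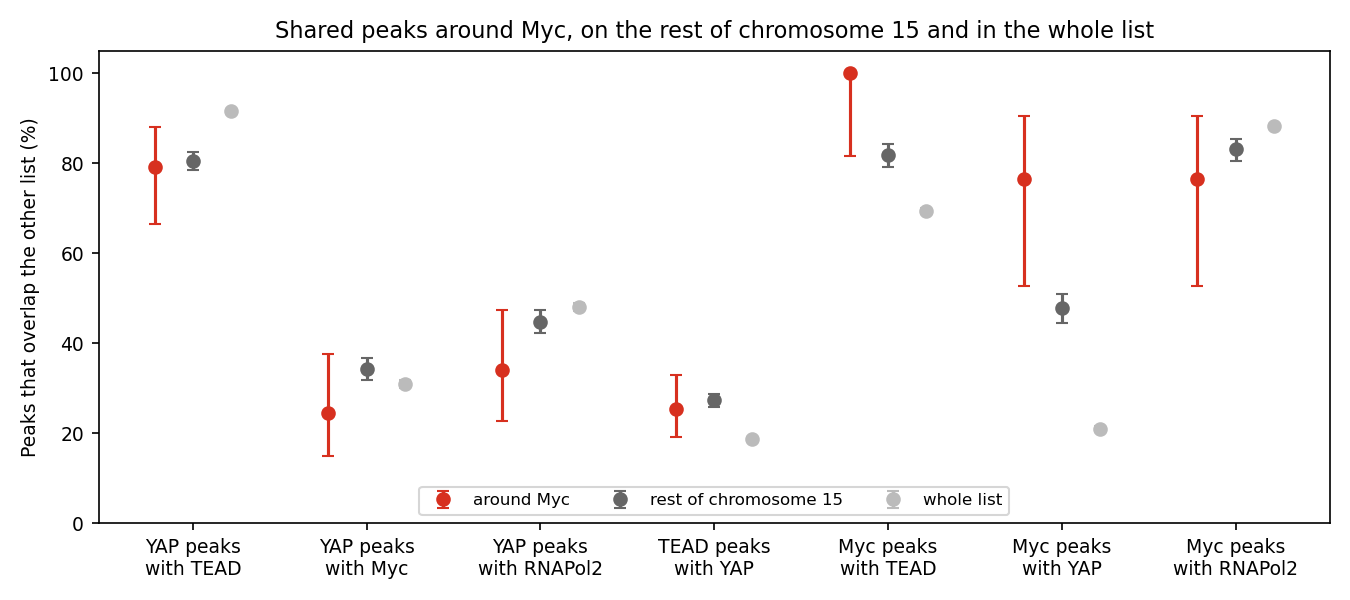
Percentage of peaks of one list that overlap another by at least 1 bp (vertical axis) around Myc, on the rest of chromosome 15 and in the whole list, with 95% Wilson intervals. Myc peaks around Myc overlapped TEAD in all 17 cases and YAP in 76.5%, against 47.7% on the rest of chromosome 15, while the intervals for YAP with TEAD around Myc and on the rest of the chromosome overlapped.

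At 13 regions of the window, peaks of YAP, TEAD and Myc overlapped each other. There were 3 in the upstream flank, 1 at the promoter, 1 in the gene body and 8 in the downstream flank. They held 13 of the 53 YAP peaks (24.5%, against 30.2% of the list), 10 with RNAPol2 (18.9%, against 26.5%) and 3 without (5.66%, against 3.77%). Another 29 YAP peaks (54.7%, against 61.4%) overlapped TEAD without Myc, 8 of them with RNAPol2 (15.1%, against 20.2%) and 21 with TEAD only (39.6%, against 41.2%). The YAP peaks of the 13 regions had a median pileup of 58, against 33 for those with TEAD but no Myc. In the whole list these medians were 28 and 25. The YAP and TEAD summits were a median of 40 bp apart and the YAP and Myc summits 154 bp.

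The highest of these regions lay 343 kb downstream. Its YAP peak, chr15:62159709-62160353, had a pileup of 130 and a fold enrichment of 17.67, at rank 50 of the YAP list and rank 8 on chromosome 15. The TEAD peak, chr15:62159701-62161236, had a pileup of 292 and a fold enrichment of 39.51, at rank 35 of its list. Each was the highest peak of its list in the window. Myc at chr15:62159814-62160462 had a pileup of 84, at rank 1544, and RNAPol2 at chr15:62159075-62161010 had 147. The 3 summits of YAP, TEAD and Myc lay within 100 bp of each other.

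Inside the run of RNAPol2 peaks lay 4 such regions. At 94.1 kb (YAP chr15:61910804-61911703) the YAP pileup was 58, with 116 for TEAD, 46 for Myc and 74 for RNAPol2. Further on, at 134 kb (YAP chr15:61950457-61951135), it was 46, with 97 for TEAD, 25 for Myc and 47 for RNAPol2. Close to its downstream end, YAP reached 70 at 294 kb (chr15:62110847-62111560), with 123 for TEAD, 31 for Myc and 28 for RNAPol2. The last, at 302 kb (YAP chr15:62118092-62119400), had a YAP pileup of 68, with 166 for TEAD, 38 for Myc and 85 for RNAPol2. At these 4 sites YAP stood at percentile 89.9 or above and TEAD at 94.7 or above, while Myc ranged from 26.6 to 68.1. A high TEAD peak of the run without Myc, at chr15:61955297-61955937 (139 kb), had a pileup of 216 and overlapped YAP and RNAPol2.

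Beyond the run and the region at 343 kb, 3 regions lay further downstream. That at 516 kb (YAP chr15:62332481-62333126) had a YAP pileup of 65, with 174 for TEAD, 34 for Myc and 30 for RNAPol2. The ones at 1355 kb (YAP chr15:63171575-63172779) and 1542 kb (YAP chr15:63358426-63358759) had no RNAPol2 peak, with YAP pileups of 49 and 46, TEAD pileups of 135 and 153, and Myc pileups of 34 and 28.

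In the upstream flank, a pair of regions lay close together. The first, at -764 kb (YAP chr15:61052214-61053237), had a YAP pileup of 60, a TEAD pileup of 233 and a Myc pileup of 27, with no RNAPol2. The second, at -745 kb (YAP chr15:61071594-61072297), had a YAP pileup of 69, with 225 for TEAD, 32 for Myc and 37 for RNAPol2. These were the 2 highest TEAD peaks of the upstream flank, at ranks 143 and 172 of 48571. The third region, at -676 kb (YAP chr15:61140599-61141558), had a YAP pileup of 38, with 118 for TEAD, 24 for Myc and 53 for RNAPol2.

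The 2 regions at the gene itself were the lowest of the 13 in YAP, TEAD or Myc. That of the promoter had a YAP pileup of 22, a TEAD pileup of 57 and a Myc pileup of 20, the YAP and Myc values being the lowest of all 13. That of the gene body had a YAP pileup of 32, a TEAD pileup of 44 and a Myc pileup of 28, the TEAD value being the lowest. The distance between the YAP and Myc summits was 346 bp at the promoter and 404 bp in the gene body.

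Other high peaks of the flanks had fewer partners. The second-highest upstream YAP peak, at chr15:61363560-61364229 (-453 kb), had a pileup of 66 with TEAD and RNAPol2. A TEAD peak at chr15:61439818-61441007 (-377 kb) had a pileup of 171, also with YAP and RNAPol2. The highest upstream Myc peak, at chr15:61186874-61187344 (-630 kb), had a pileup of 36, at percentile 54.3, and overlapped TEAD only.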

How the data were processed

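ChIP-seq peak lists of 4 samples of 3T9MycER cells treated with OHT and doxycycline were used, 1 per antibody. The authors aligned reads with BWA 0.6.2 and called peaks with MACS2 2.0.9 (submitters' processing notes), each sample alone. Per the file headers, the p-value cutoff was 1e-05, at most 2 duplicate tags were kept per position, the larger library was scaled down, and the local control was read over 1000 and 10000 bp. The deposited values were peak positions, pileup (a coverage signal), −log10 of the p-value and q-value, and fold enrichment, a ratio of pileup over the local control. Whether the control library of the headers is the input sample is not stated. Precision is limited by depth and by single samples.

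Peaks were selected by summit, ranked by pileup within their list and within chromosome 15, and overlapped at 1 bp or more, in Python 3.11.15 with pandas 2.3.3 and numpy 2.4.6; the code was tested on simulated data. Densities for chromosome 15 used 100.306 Mb, the span from its first to its last peak in any list. Shares have 95% Wilson intervals. The members, zones and lists were chosen with earlier results of these data known. Peaks named were those at the promoter or in the gene, the 3 highest per list and flank, the nearest to the promoter on each side, and every region of YAP, TEAD and Myc. The run of RNAPol2 peaks and its gap lengths, the ratio without it, the peak-free stretches, the highest YAP peak without TEAD, the TEAD peaks under the Myc peak at 52.7 kb and the comparison with RNAPol2 peaks of equal height were chosen after seeing the data. Alternatives were a −log10 q of at least 10, the stronger 50% of each list, flanks of 500 kb, promoter zones of 500 and 2500 bp, ranks by fold or p, summits within 250 bp, an overlap of 50%, and chromosome 15 up to 76 Mb. The order of genes came from a RefSeq annotation of GRCm38.p6, whose coordinates were not used.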

Additional observations from a re-analysis of the deposited data

How the results depend on the processing

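No paired analysis was possible because there was 1 sample per antibody, and for the same reason no sample could be left out. Of 94 alternative values, 41 stayed within the spread allowed, 48 moved and 5 turned direction, and the cause was not tested except where the alternative keeps fewer peaks. With a −log10 q of at least 10, the window held 51 RNAPol2, 94 TEAD, 31 YAP and 8 Myc peaks. The density ratio to the rest of chromosome 15 was then 1.01 for RNAPol2, 1.98 for YAP and 0.420 for Myc. Myc downstream over upstream was 4.24, resting on the only upstream Myc peak left. With the stronger 50% of each list, the counts were 9, 53, 20 and 3. The density ratio was then 0.263 for RNAPol2 (below 1 instead of above) and 0.268 for Myc. RNAPol2 downstream over upstream was 4.24, with an interval of 0.680 to 26.4 that includes equal density. No upstream Myc peak was left for that ratio. In these lists YAP overlapped Myc in 5% and RNAPol2 in 20%. The 3 Myc peaks overlapped TEAD and YAP in 33.3% and RNAPol2 in 100%. Within 500 kb of the start, the counts were 60 for TEAD, 29 for YAP and 10 for Myc. Downstream over upstream was 71.4 for RNAPol2 and 6.99 for Myc, the latter resting on the only upstream Myc peak there. For TEAD and YAP the ratio turned direction to 1.15 and 1.27, with intervals that include equal density. Without the run, RNAPol2 downstream over upstream turned to 0.404, with an interval of 0.122 to 1.33 that includes equal density. Gaps of at most 5 kb gave a run of 71 peaks. Against chromosome 15 up to 76 Mb, the density ratio was 2.03 for RNAPol2 and turned to 1.04 for Myc, with an interval of 0.643 to 1.68 that includes equal density.

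Ranked by fold enrichment, the highest promoter peak stood at percentile 97.2 for RNAPol2, 73.7 for TEAD and 4.69 for YAP in its list, and at 78.7 for TEAD and 12.5 for YAP on chromosome 15; by −log10 p, at 98.6, 82.1 and 43.4, and at 47.6 for YAP on chromosome 15. The median of the window peaks by fold enrichment was 8.39 for RNAPol2, 24.4 for TEAD, 36.8 for YAP and 7.93 for Myc, and by −log10 p 32.4 for RNAPol2, 50.6 for TEAD and 24.0 for Myc. With summits within 250 bp, YAP was with RNAPol2 in 22.6%, Myc with TEAD in 70.6% and Myc with RNAPol2 in 41.2%. Shares under this and the other alternatives were computed for the window only. The control level in the window was 1.87 times the floor from the RNAPol2 list alone, 1.73 from TEAD and 1.71 from Myc.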
